A study of Mus musculus with 9 samples.

Results

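The genes described here are the expressed mouse Zfp genes, the protein-coding genes whose symbol is Zfp followed by a number. Members were chosen on their counts summed over the 9 libraries of the series, at least 1800, and 160 of the 398 protein-coding genes with such a symbol passed. Another 234 lay below that sum and 4 were left out by name, Zfp36, Zfp36l1, Zfp36l2 and Zfp36l3, whose fingers bind AU-rich messenger RNA. The choice used the level over all libraries and no difference between groups, so the level itself is given only as a description.

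Most Zfp genes encode proteins with C2H2 zinc fingers, short loops folded around a zinc ion that each read a few bases of DNA, and arrays of fingers let a protein pick out a long site. Many also carry a KRAB box, which binds Trim28 and through it brings Setdb1, heterochromatin proteins and histone deacetylases to silence retroelements and imprinted regions. Others carry a SCAN box for pairing, or have turned to work outside transcription, in ribosome surveillance, splicing or the mitotic spindle.

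The cells were labelled as primary ventricular myocytes of wild-type C57BL/6J mice taken 1 day after birth, in 3 groups of 3 libraries of polyadenylated RNA. Control cells stayed at normal oxygen in complete DMEM with 10% serum. Hypoxia cells spent 6 h in a sealed chamber with an oxygen absorber, in DMEM without glucose or serum. Hypoxia+rSRGN cells had the same treatment with recombinant serglycin (SRGN), a secreted proteoglycan core protein, added. Low oxygen and the loss of glucose and serum came together and cannot be told apart, and the labels do not say whether the 3 libraries of a group came from separate animals or cultures.

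The libraries held 22472430, 22781557 and 21669017 counted fragments in Control, 18148474, 17434604 and 16583985 in Hypoxia, and 16640239, 20826701 and 18772474 in Hypoxia+rSRGN. The members took 0.556%, 0.541% and 0.534% of the counts in Control, against 0.463%, 0.431% and 0.456% in Hypoxia and 0.476%, 0.455% and 0.464% in Hypoxia+rSRGN. The Control shares lay above those of all 6 hypoxic libraries. Summed counts of a member ran from 1814 to 34784 with a median of 4190.5, and the lowest count of any member in any library was 80. All 160 members passed the filter on low counts. Just inside the threshold stood Zfp81 with 1814 counts, Zfp414 with 1817 and Zfp354c with 1842, and just outside it Zfp729a with 1777, Zfp51 with 1752 and Zfp120 with 1743.

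The label of the cells was checked against marker genes. The 12 cardiomyocyte markers summed to 44216, 51051 and 53558 scaled counts per 10⁶ fragments (CPM) in Control. They summed to 5860, 5503 and 3805 in Hypoxia, and 7999, 7449 and 7567 in Hypoxia+rSRGN. Myh6 was the most abundant over all libraries, while in Hypoxia Tnnt2 averaged more (1769 CPM against 1346). In Hypoxia all 12 were called lower against Control (median −3.70 on the log2 scale). The 8 fibroblast markers, led by Col1a1, summed to 8657, 9909 and 10243 CPM in Control, 19890, 17099 and 19206 in Hypoxia, and 18917, 19478 and 19148 in Hypoxia+rSRGN, and 6 of them were called higher in Hypoxia than in Control. All 8 were higher without overlap between the groups, with Pdgfra (0.19) and Lum (0.29) under the fold limit. Among those called Col3a1 lost its call without Control replicate 1 (0.53) and without Hypoxia replicate 1 (0.55). The fibroblast sum was smaller than the cardiomyocyte sum in every Control library and larger in every Hypoxia and Hypoxia+rSRGN library. Markers of other cells were thus present in all groups, beside those of myocytes.

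The 6 macrophage markers, led by Lyz2, summed to 221, 232 and 237 CPM in Control, 24.1, 25.3 and 26.8 in Hypoxia, and 33.8, 32.1 and 28.0 in Hypoxia+rSRGN, and all 6 were called lower in Hypoxia. The 6 endothelial markers summed to 65.1, 82.1 and 91.1 CPM in Control, 51.5, 42.1 and 43.0 in Hypoxia, and 52.5, 56.2 and 43.0 in Hypoxia+rSRGN. Tek was the most abundant over all libraries, while in Control Cdh5 averaged more (20.6 CPM against 16.8). Of the 6 markers, 5 were called lower in Hypoxia, and Emcn lost its call without Control replicate 2 (−0.51) or 3 (−0.51). The 5 smooth muscle markers, led by Acta2, summed to 1406, 1529 and 1675 CPM in Control, 2005, 2297 and 2216 in Hypoxia, and 1716, 1813 and 1839 in Hypoxia+rSRGN, with 1 called higher and 1 lower in Hypoxia. The lower gene, Cnn1, lost its call without Control replicate 3 (−0.44), and Acta2 (0.61 without Control replicate 3, 0.61 without Hypoxia replicate 1) and Myh11 (−0.62 without Control replicate 1, −0.59 without Hypoxia replicate 2) gained one. Of the 4 red blood cell markers, Hba-a2 had no count and none had enough counts for a test. In bulk RNA, fewer cells of a type and less RNA per cell cannot be told apart, and the part of these markers in the results on Zfp genes was not tested.

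Per kilobase of exon, the members averaged between 1.07 and 21.9 CPM over the 9 libraries, with a median of 4.01. The highest was Zfp207 at 21.9 CPM per kilobase, the gene of BuGZ, which loads Bub3 onto kinetochores. It was followed by Zfp706 at 21.6, Zfp623 at 21.5, Zfp106 at 18.1 and Zfp598 at 17.1. Zfp948 at 13.3, Zfp57 at 12.7 and Zfp579 at 12.5 completed the 8 highest. This order pools the 3 groups and does not hold in each of them. Zfp106, for example, averaged 353 CPM in Control and 88.4 in Hypoxia. Zfp207 had 152, 137 and 140 CPM in Control, 144, 161 and 151 in Hypoxia, and 134, 146 and 148 in Hypoxia+rSRGN. Its groups overlapped, and the log2 fold change of 0.09 between Hypoxia and Control missed the threshold in the edgeR quasi-likelihood test (Benjamini-Hochberg adjusted p = 0.271).

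Hypoxia against Control asks how the transcripts of these cultures differ after 6 h at low oxygen without glucose and serum. A gene is called here when its adjusted p is below 0.05 and its fold change is at least 1.5 either way, and changes are given as log2 fold changes unless a fold is named. More members fell than rose: 55 of 160 were called lower and 14 higher, and the other 91 were not called. Among all 16762 genes tested, 25.1% were called lower and 26.4% higher, 51.6% in all, while the members' shares were 34.4% lower and 8.75% higher. Among the 9465 protein-coding genes that reach the same sum of counts, 25.3% were called lower and 22.3% higher. The median change on the log2 scale was −0.31 over the members, with quartiles at −0.68 and 0.11, −0.01 over those protein-coding genes and 0.05 over all genes tested.

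The extremes were Zfp106, at a fold change of 0.250, and Zfp623, at 4.26, and 104 of the 160 had a log2 fold change below 0. In 85 members every Hypoxia library lay below every Control library, where 35.3% of all genes did so, and in 30 every Hypoxia library lay above, where 37.7% of all genes did. All 69 called members were among them. With scaling by library size alone 43 members were called lower and 16 higher (26.9% and 10.0%), beside 23.3% and 28.8% of all genes tested. The medians were then −0.24 for members and 0.12 for all genes.

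**Figure D1:**
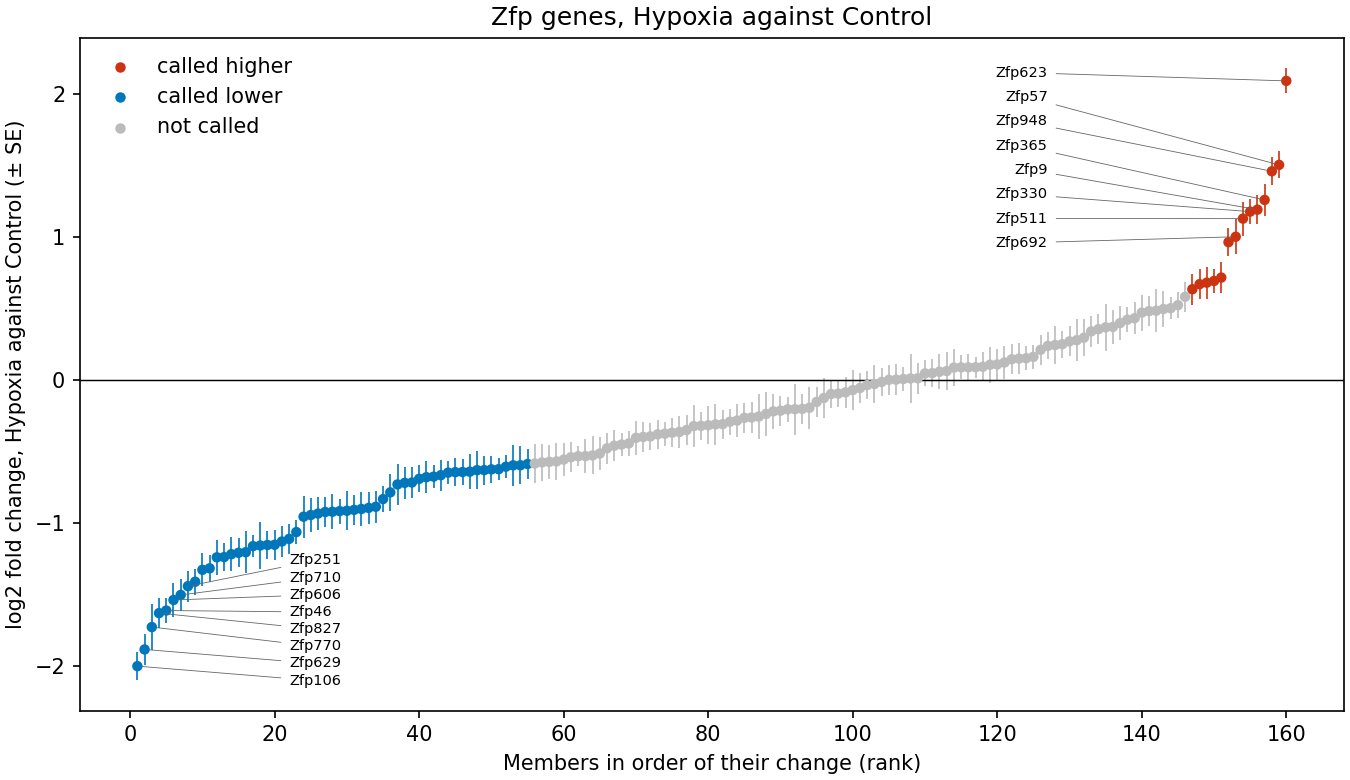
Log2 fold change of each of the 160 members between Hypoxia and Control (vertical axis, with its standard error as a bar), in order from lowest to highest (horizontal axis, rank). Red points are the 14 members called higher, blue the 55 called lower and grey the 91 not called; the 8 largest changes in each direction carry names.

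Zfp106, an RNA-binding protein needed to keep motor neurons and skeletal muscle intact (ENSMUSG00000027288.16, minus strand of chr2:120506820-120563843 in mm10), had 325, 359 and 376 CPM in Control and 104, 85.3 and 75.6 in Hypoxia. The lowest Control library held more than 3 times the highest Hypoxia library. It was the largest fall among the members, by 2.00 ± 0.10 (SE) on the log2 scale (edgeR quasi-likelihood test, Benjamini-Hochberg adjusted p = 4.61e-14).

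Zfp598, the ubiquitin ligase that marks collided ribosomes, had 37.4, 48.2 and 37.2 CPM in Control and 78.2, 77.3 and 84.3 in Hypoxia. All Hypoxia libraries lay above all Control libraries, and the gene rose by 0.96 on the log2 scale (edgeR adjusted p = 9.58e-09). Zfp330, a cysteine-rich nucleolar protein, rose by 1.18 (edgeR adjusted p = 6.77e-11), from 29.5, 24.9 and 28.0 CPM to 58.1, 67.3 and 61.1. Zfp622, which acts late in the maturation of the large ribosomal subunit, stood 0.52 higher (edgeR adjusted p = 2.59e-05), under the fold limit, and passed it with scaling by library size alone (0.59). Zfp326, a subunit of the DBIRD complex that links splicing to RNA polymerase, differed by 0.09 and was not called.

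Zfp638, which helps the HUSH complex silence unintegrated retroviral DNA, had 96.2, 77.6 and 87.5 CPM in Control and 59.9, 50 and 57.4 in Hypoxia, a fall by 0.64. Its groups did not overlap, yet the call was lost without Control replicate 1 (−0.58), without Hypoxia replicate 2 (−0.57) and with scaling by library size alone (−0.57). Zfp706, a small protein that limits the self-renewal of embryonic stem cells, had 140, 122 and 121 CPM in Control and 88.7, 102 and 90.5 in Hypoxia. The groups did not overlap, but the log2 fold change of −0.45 lay under the fold limit (edgeR adjusted p = 2.82e-05).

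Of the 52 members with a KRAB box, 4 were called higher and 16 lower in Hypoxia (7.69% and 30.8%, beside 26.4% and 25.1% of all genes tested), with a median of −0.27. The 4 that rose were Zfp57, Zfp948, Zfp9 and Zfp655. Zfp57, which keeps DNA methylation at imprinted regions (ENSMUSG00000036036.15, plus strand of chr17:37001163-37010635), had 23.4, 22 and 22.9 CPM in Control and 57.6, 73.5 and 63.1 in Hypoxia. Every Hypoxia library held over 2 times the highest Control library, and the fold change was 2.84 (edgeR quasi-likelihood test, adjusted p = 3.64e-12).

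Zfp948 (ENSMUSG00000067931.6, plus strand of chr17:21567008-21588699) had 18, 15.2 and 16.9 CPM in Control and 45.2, 50.5 and 42.2 in Hypoxia, a rise by 1.46 on the log2 scale (edgeR adjusted p = 1.23e-11). Zfp9 rose by 1.19, from 17.4, 15.6 and 19.6 CPM to 36.6, 42.8 and 40.8. Zfp655 rose by 0.69, from 42.2, 37.7 and 35.8 CPM to 60.8, 62.7 and 63.8. In all 3 genes the Hypoxia libraries lay above the Control libraries.

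Zfp445, which guards imprints together with Zfp57 and was named after its values were seen, had 102, 97.4 and 103 CPM in Control and 72.1, 61.0 and 63.8 in Hypoxia. The direction was opposite to that of Zfp57, a fall by 0.62, and the call was lost without Hypoxia replicate 2 (−0.57) and with scaling by library size alone (−0.55). Zfp568, which represses a placental promoter of Igf2, had 72.4, 76.0 and 82.9 CPM in Control and 52.2, 45.6 and 47.0 in Hypoxia. Its groups did not overlap, and it fell by 0.67 (edgeR adjusted p = 1.87e-07). The largest fall in this class was that of Zfp606, by 1.54. Zfp809, which starts the silencing of proviruses (−0.07), and Zfp110, a partner of the p75 neurotrophin receptor (−0.08), were not called.

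Among the members without a KRAB box, Zfp623 (ENSMUSG00000050846.9, plus strand of chr15:75940952-75949400) showed the largest rise of all members. It had 14.7, 16.4 and 16.1 CPM in Control and 72.8, 64.0 and 64.8 in Hypoxia. The lowest Hypoxia library held over 3 times the highest Control library, and the log2 fold change was 2.09 ± 0.09 (SE; edgeR quasi-likelihood test, adjusted p = 2.76e-15). Zfp365, a centrosomal protein in which no finger was found by pattern, rose by 1.26 (edgeR adjusted p = 1.81e-09), from 19.9, 13.9 and 16.6 CPM to 42.5, 42.5 and 35.7. Zfp692, which binds the AICAR response element, rose by 1.00 (edgeR adjusted p = 1.62e-07), from 10.2, 10.7 and 9.23 CPM to 18.8, 21.7 and 20. Neither gene overlapped between these groups.

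Zfp511 rose by 1.13, from 9.98, 9.66 and 7.54 CPM to 19.9, 19.6 and 20.1, with every Hypoxia library above every Control library. The remaining members called higher were Zfp64 (0.72), a regulator of the Mll gene, Zfp532 (0.68), Zfp385a (0.67), which steers p53 between its targets, and Zfp142 (0.64). Zfp142 lost its call without Control replicate 3 (0.58), without Hypoxia replicate 1 (0.53) and when genes with any count were kept (0.58).

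The falls without a KRAB box were led, after Zfp106, by Zfp629, with 50.9, 54.0 and 51.1 CPM in Control and 16.1, 12.8 and 13.3 in Hypoxia. It fell by 1.88 ± 0.11 (SE) on the log2 scale (edgeR quasi-likelihood test, adjusted p = 5.33e-13). Zfp770 fell by 1.73 (edgeR adjusted p = 2.56e-09), from 22.4, 20.6 and 19.7 CPM to 7.14, 4.62 and 7.18. In both genes every Hypoxia library held under 0.5 times the lowest Control library.

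Zfp827, which brings the NuRD complex to telomeres, fell by 1.63 (edgeR adjusted p = 5.89e-12), from 62.7, 67.9 and 55.7 CPM to 21.9, 21.1 and 17.3. Zfp46 fell by 1.61 (edgeR adjusted p = 1.58e-13), from 78.9, 87.6 and 89.7 CPM to 26.9, 27.3 and 29.8. Neither gene overlapped between the groups. Zfp710 fell to 0.353 of its Control level, and on the log2 scale Zfp251 fell by 1.44, Zfp24, which carries a SCAN box, by 1.41, and Zfp651 by 1.31.

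Zfp91, a ubiquitin ligase of non-canonical NF-κB signalling, had 117, 106 and 104 CPM in Control and 49.1, 54.8 and 52.8 in Hypoxia. Its groups did not overlap, and it fell by 1.06 (edgeR adjusted p = 9.25e-11). Zfp281, a regulator of pluripotency, fell to 0.609 of its Control level.

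Zfp521, a coregulator in blood and neural progenitors, fell by 0.68. Zfp148, which binds GC-rich promoters, had 82.1, 71.6 and 75 CPM in Control and 53.6, 49.3 and 47.5 in Hypoxia. Its groups did not overlap and it fell by 0.60, but the call was lost without Control replicate 1 (−0.57), without Hypoxia replicate 3 (−0.57) and with scaling by library size alone (−0.54). Zfp143, an activator of small nuclear RNA and many coding promoters, stood at −0.57 and was not called. It passed the limit without Control replicate 2 (−0.64) or 3 (−0.59), without Hypoxia replicate 2 (−0.70), without Hypoxia+rSRGN replicate 3 (−0.59), and, among other settings, under DESeq2 (−0.60).

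Zfp592, Zfp687 and Zfp532 work together with Zmynd8 in chromatin, and they did not move alike. Zfp687 fell by 1.24 (edgeR adjusted p = 8.25e-09), from 37.0, 40.4 and 35.7 CPM to 18, 13.8 and 16.2, whereas Zfp532 rose by 0.68 and Zfp592 was not called at 0.15. Also not called were the corepressors Zfp703 (0.43) and Zfp217 (−0.10), the brown fat regulator Zfp516 (−0.35), the heterochromatin factor Zfp462 (0.28), Zfp384 (0.50), Zfp277 (0.36), Zfp131 (0.27), Zfp444 (−0.32) and Zfp579 (0.05). Of the 35 members on a list of 43 Zfp genes with a known role, 9 were called higher and 9 lower (25.7% each), with a median of 0.09, beside 26.4% and 25.1% of all genes tested.

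Zfp260, a partner of Gata4 in cardiac gene activation that was named after its values were seen, had 75.1, 69.7 and 71.4 CPM in Control and 46.2, 43.5 and 48.4 in Hypoxia. It fell by 0.65 with no overlap between the groups, and lost its call with scaling by library size alone (−0.58).

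**Figure D2:**
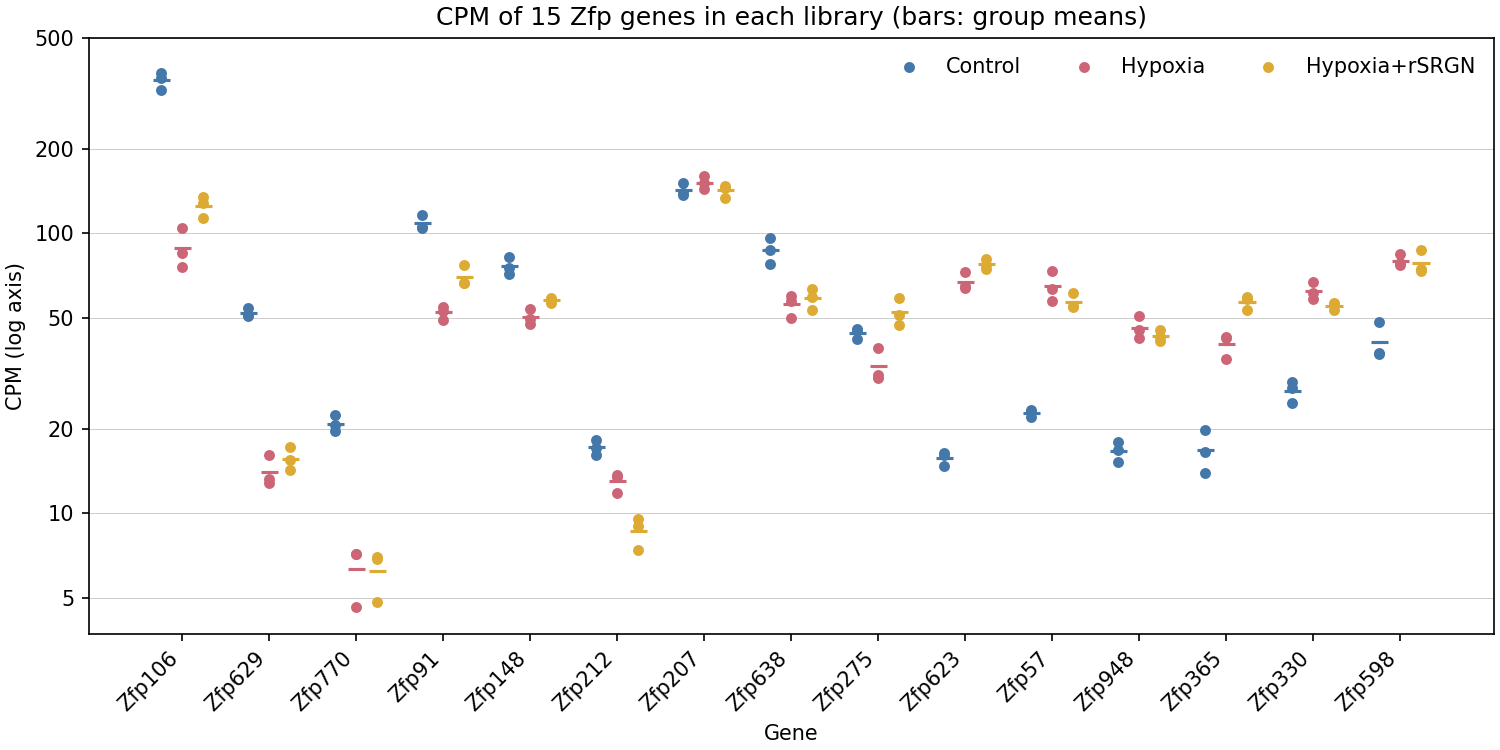
Scaled CPM (vertical log axis) of 15 of the Zfp genes named in the text (horizontal axis) in each library, with Control, Hypoxia and Hypoxia+rSRGN in separate colours, a point per library and a bar at each group mean. Zfp106 has its highest level in Control and Zfp623 its lowest, Zfp207 overlaps between groups, and Zfp212 steps down from Control to Hypoxia+rSRGN.

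The partners of KRAB proteins were followed as a list of corepressor genes. Leaving out a gene of the list that is not reported here, 31 were counted, and all 31 were tested. In Hypoxia against Control 2 were called higher and 6 lower, with a median of −0.14. These were 6.45% and 19.4%, beside 26.4% and 25.1% of all genes tested, and the difference was not tested. Trim28, which binds the KRAB box, averaged 173 CPM in Control and 230 in Hypoxia, and its difference of 0.41 stayed under the fold limit. Setdb1, the histone methyltransferase that Trim28 recruits, averaged 45.3 and 42.4 CPM (−0.10) and was not called.

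The 6 that fell were Chd4 and Chd3, the motors of the NuRD complex (by 1.29 and 1.67), the DNA methyltransferase Dnmt3a (by 1.39), the heterochromatin protein Cbx5 (by 1.23), the remodeller Atrx (by 1.08) and the HUSH subunit Tasor (by 0.76). Chd4 went from a mean of 427 CPM in Control to 174 in Hypoxia (edgeR quasi-likelihood test, adjusted p = 3.62e-13). The 2 that rose were Uhrf1 (0.89), which guides maintenance methylation, and the deacetylase Hdac1 (0.81). Zfp410, an activator of Chd4 named after its values were seen, had 46.2, 43.4 and 41.6 CPM in Control and 49.6, 47.3 and 50 in Hypoxia. Its difference of 0.16 was not called, although the groups did not overlap.

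Hypoxia+rSRGN against Hypoxia asks what added serglycin changes under the same low oxygen and medium. Few members were called: Zfp275 rose and Zfp212 fell, and the other 158 were not called. Of all genes tested 2.27% were called higher and 0.859% lower, 3.13% in all, and of the protein-coding genes at the same sum of counts 2.91% were called higher and 0.211% lower. The shares of all genes depended on single libraries: without Hypoxia replicate 3 they were 1.15% higher and 0.688% lower, and without Hypoxia+rSRGN replicate 2 they were 1.64% and 0.405%. The members' median was 0.01 on the log2 scale, with quartiles at −0.11 and 0.18. In 35 members every Hypoxia+rSRGN library lay above every Hypoxia library and in 15 every one lay below, where 16.5% and 15.5% of all genes did so.

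Zfp275 (ENSMUSG00000031365.13, plus strand of chrX:73342621-73359080) had 39.0, 30.5 and 31.2 CPM in Hypoxia and 50.9, 58.8 and 47.1 in Hypoxia+rSRGN. The groups did not overlap, and the log2 fold change was 0.64 ± 0.10 (SE; edgeR quasi-likelihood test, adjusted p = 0.00034). In Control it had 42.1, 45.4 and 45 CPM, between the other groups. The call was lost without Hypoxia replicate 2 (0.58) or without Hypoxia+rSRGN replicate 2 (0.55).

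Zfp212 (ENSMUSG00000052763.7, plus strand of chr6:47920476-47932639) had 13.7, 13.5 and 11.9 CPM in Hypoxia and 9.53, 7.42 and 8.98 in Hypoxia+rSRGN, against 18.3, 17.2 and 16.1 in Control. The 3 groups lay in steps without overlap, highest in Control. The log2 fold change between the hypoxic groups was −0.60 ± 0.13 (SE; edgeR adjusted p = 0.00322), close to the fold limit. It fell under that limit without Control replicate 1 or 2 (−0.58 each), Hypoxia replicate 1 (−0.56) or 2 (−0.57), or Hypoxia+rSRGN replicate 2 (−0.49), and, among other settings, under DESeq2 (−0.57).

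At an adjusted p below 0.05 with any fold, 15 members were higher and 8 lower with serglycin (9.375% and 5.0%). Of all genes tested 10.5% and 6.11% were, so the members' shares lay slightly under those of all genes. Zfp106 was among the higher ones, with 104, 85.3 and 75.6 CPM in Hypoxia and 128, 135 and 114 in Hypoxia+rSRGN. The groups did not overlap at a log2 fold change of 0.51 (edgeR adjusted p = 0.00128), all hypoxic libraries stayed far below Control, and without Hypoxia replicate 1 the gene passed the fold limit (0.64). Zfp91 had 49.1, 54.8 and 52.8 CPM in Hypoxia and 66.5, 77 and 66.8 in Hypoxia+rSRGN, a log2 fold change of 0.43 (edgeR adjusted p = 0.00128).

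Zfp365 had 42.5, 42.5 and 35.7 CPM in Hypoxia and 53.1, 58.4 and 59.5 in Hypoxia+rSRGN, a log2 fold change of 0.50 (edgeR adjusted p = 0.00306). Its hypoxic groups did not overlap and both lay above Control. Others higher under the fold limit were Zfp367 (0.48), Zfp704 (0.46), Zfp597 (0.44), which passed the limit without Hypoxia replicate 2 (0.62), Zfp703 (0.40), Zfp609 (0.39), Zfp955a (0.33), Zfp407 (0.32), Zfp266 (0.30), Zfp740 (0.28), Zfp664 (0.26) and Zfp871 (0.25).

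Among the lower ones, Zfp692 had 18.8, 21.7 and 20 CPM in Hypoxia and 13.3, 13.2 and 16.5 in Hypoxia+rSRGN, a log2 fold change of −0.49 (edgeR adjusted p = 0.00694) that reached −0.60 and a call without Hypoxia+rSRGN replicate 3. Zfp511 had 19.9, 19.6 and 20.1 CPM in Hypoxia and 14.2, 14.5 and 15.2 in Hypoxia+rSRGN (−0.44, edgeR adjusted p = 0.0122). In both genes the Hypoxia+rSRGN libraries lay between Control and Hypoxia without overlap. Zfp414 (−0.56) had overlapping groups, and was called without Hypoxia replicate 1 (−0.71), Hypoxia replicate 3 (−0.61) or Hypoxia+rSRGN replicate 3 (−0.68). Zfp157 (−0.54) also had overlapping groups, and was called without Hypoxia replicate 2 (−0.68) or Hypoxia+rSRGN replicate 1 (−0.70). Zfp111 (−0.44), Zfp637 (−0.36) and Zfp64 (−0.33) completed the list.

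Of the cardiomyocyte markers 11 of 12 were called higher in Hypoxia+rSRGN than in Hypoxia, where 2.27% of all genes tested were, with a median of 0.78 for the markers. Without Hypoxia replicate 3, whose summed level was the lowest, Myh6 (0.54), Actn2 (0.54), Ryr2 (0.56) and Actc1 (0.40) lost the call, and Actc1 also without Hypoxia+rSRGN replicate 1 (0.57). The fibroblast marker Tcf21 was called lower and the endothelial marker Kdr higher. Their part in the results on Zfp genes was not tested. Of the corepressors Rcor1 was called higher (0.59), and lost the call without Hypoxia replicate 3 (0.52), without Hypoxia+rSRGN replicate 1 (0.58) and with scaling by library size alone (0.57).

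Hypoxia+rSRGN against Control shares its libraries with both other comparisons, so its values are set beside theirs and support nothing further. Of the members 13 were called higher and 52 lower, against 24.1% and 24.7% of all genes tested, 48.8% in all. The median was −0.32. The members called higher were Zfp623 (2.30), Zfp365 (1.76), Zfp948 (1.37), Zfp57 (1.32), Zfp9 (1.27), Zfp330 (1.01), Zfp598 (0.94), Zfp655 (0.88), Zfp142 (0.87), Zfp703 (0.83), Zfp469 (0.75), Zfp800 (0.71) and Zfp511 (0.69). Zfp469 lost its call without Control replicate 1 (0.58) and Zfp511 without Control replicate 3 (0.57).

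The largest falls were those of Zfp770 (−1.75), Zfp629 (−1.73), Zfp606 (−1.63), Zfp251 (−1.55), Zfp827 (−1.55) and Zfp106 (−1.49). Zfp212 fell by 1.00 in this comparison (edgeR quasi-likelihood test, adjusted p = 3.25e-07). Zfp143 was called here at −0.69, and not without Hypoxia+rSRGN replicate 1 (−0.56).

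**Figure D3:**
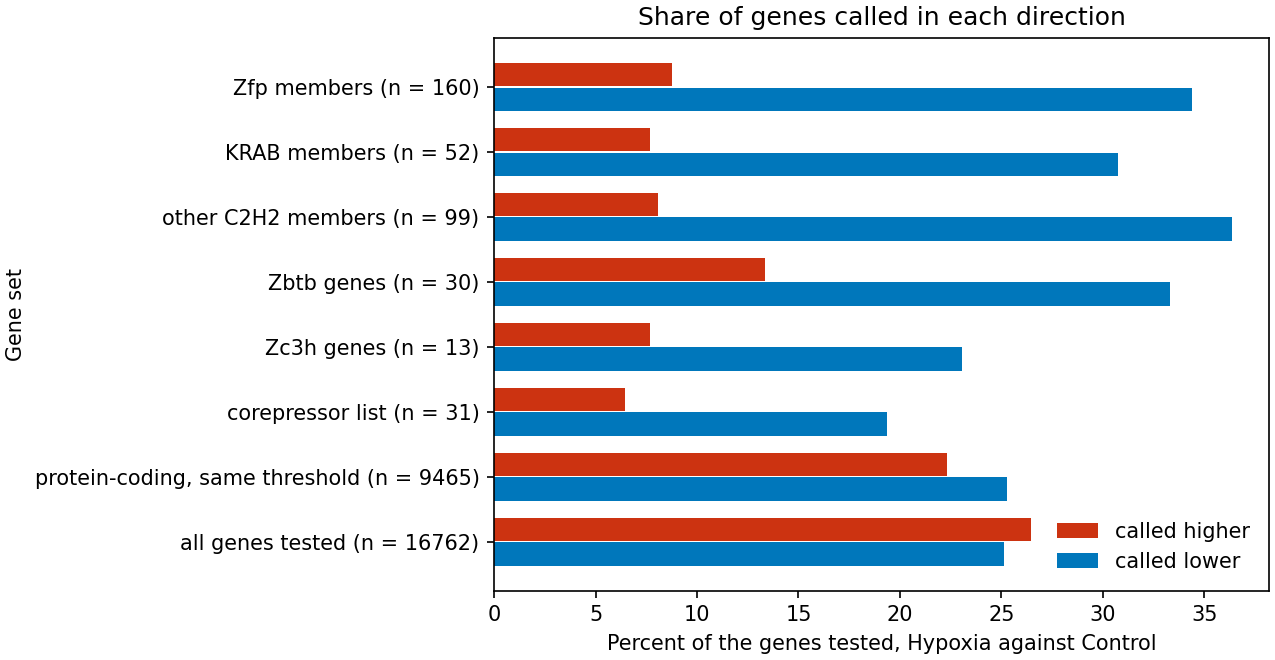
Percent of the genes tested (horizontal axis) that were called higher (red) or lower (blue) in Hypoxia against Control, for the members, their KRAB and other C2H2 classes, other families, the corepressor list and 2 backgrounds (vertical axis, with the number of genes). The members' bars stand at 8.75% and 34.4%, and those of all genes tested at 26.4% and 25.1%.

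The members were sorted by the domains that patterns found in their translated coding sequences, which could be matched for 159 of the 160 (all but Zfp469). A KRAB box was found in 52, a SCAN box without KRAB in 5, fingers with neither in 99, and no finger by the pattern in 3, Zfp703, Zfp330 and Zfp365. In Hypoxia against Control the 99 members with fingers alone gave 8 called higher and 36 lower (8.08% and 36.4%, beside 26.4% and 25.1% of all genes tested) with a median of −0.37, and the difference from the KRAB class was not tested. Of the 5 SCAN members Zfp24, Zfp397 and Zfp449 fell, and Zfp263 and Zfp444 were not called. The members held a median of 9 fingers and at most 36, in Zfp142, with medians of 12 in the KRAB class and 8 in those with fingers alone.

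Grouped by the number of fingers, members with 1 to 4 fingers (31) had a median of −0.44, those with 5 to 9 (49) −0.21 and those with 10 or more (76) −0.37. Pearson's r between fingers and log2 fold change was −0.03 across 159 members, which share the same libraries and are not independent replicates. A KRAB box was found in 211 protein-coding Zfp genes, of which 159 lay below the count threshold.

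Members called higher had a median length of 4550 bases, those called lower in Hypoxia against Control 6800 and those not called 5628. Across the 160 members r between log2 length and log2 fold change was −0.26 in Hypoxia against Control, and −0.18 across the 9465 protein-coding genes at the same sum of counts. In Hypoxia+rSRGN against Hypoxia it was 0.26 and 0.41. All points share the libraries and the length enters the counts, so these are descriptions.

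Many Zfp genes stand in tandem clusters. With starts less than 250 kb apart, 50 members formed 17 clusters, which held 28 of the 52 KRAB members. Inside clusters 1 member was called higher and 16 lower in Hypoxia against Control (2% and 32%), with a median of −0.29. Among the 110 outside 13 were called higher and 39 lower (11.8% and 35.5%), with a median of −0.33. Of all genes tested 26.4% were called higher and 25.1% lower. The largest cluster held 7 members on chr7:29768552-30169750, of which Zfp84, Zfp790, Zfp568 and Zfp260 were called lower. The cluster of Zfp397, Zfp35 and Zfp24 on chromosome 18 had all 3 called lower, though Zfp35 (−0.63) lost its call without Hypoxia replicate 2 (−0.48) and with scaling by library size alone (−0.56). Neighbours could also part: on chr11:58307069-58330339 Zfp692 rose and Zfp672 fell by 1.21.

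Other zinc finger families at the same sum of counts were set beside the members in Hypoxia against Control. Of 30 Zbtb genes 4 were called higher and 10 lower (13.3% and 33.3%), with a median of −0.25. Of 13 Zc3h genes, which carry CCCH fingers, 1 was called higher and 3 lower (7.69% and 23.1%, median −0.25), and 3 of 9 Zscan and Zkscan genes were called lower (33.3%, median −0.26). Of all genes tested 26.4% were called higher and 25.1% lower. Of the 186 Zfp genes below the count threshold that were tested, 14 were called higher and 72 lower in Hypoxia against Control (7.53% and 38.7%, median −0.48). In Hypoxia+rSRGN against Hypoxia 0 of them were called higher and 8 lower (4.30%), with a median of −0.23. Of all genes tested 2.27% and 0.859% were called there. The differences between these sets and the members were not tested.

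Promoters of 250 bases before to 50 after the start could be matched by symbol for 128 of the 160 members in the RefSeq sequences of build GRCm38.p6. Each was searched on both strands for 5 motifs, and a match is a description of letters only. ACGTG is a form of the core of the hypoxia response element, and the other form, GCGTG, was not searched. ACGTG stood in 31 of the 128 promoters (24.2%) and in 19.6% of all 27025. Of the 7617 promoters of protein-coding genes at the same sum of counts, it stood in 27.2%. It stood in 6 of 11 members called higher in Hypoxia against Control, 7 of 41 called lower and 18 of 76 not called. For CCGGAAG, read by ETS factors, the same split was 3, 11 and 13 members, for GCGCATGC, read by Nrf1, 0, 2 and 5, for TGACGTCA 0, 2 and 2, and for ATGGCGG, read by Yy1, 0, 5 and 9. These splits were not tested. TGACGTCA, the cyclic AMP response element, stood in 4 members (3.13%), in 1.85% of all promoters and 3.37% of those expressed, and shares the letters ACGT with the first motif.

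CCGGAAG stood in 27 members (21.1%), in 9.14% of all promoters and 20.1% of those expressed. GCGCATGC stood in 7 members (5.47%), in 2.81% of all promoters and 6.0% of those expressed. ATGGCGG stood in 14 members (10.9%), in 4.21% of all promoters and 9.33% of those expressed. The median GC content was 57.8% in the members, 52.7% in all promoters and 62.0% in those expressed.

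Promoters are printed for all of the 8 largest rises and 8 largest falls in Hypoxia that were matched and have a single listed start, 5 of each, to show where the motifs lie among members that moved in each direction. The motifs found are in capitals (a motif on the opposite strand appears as its reverse complement), and sequences run 5′ to 3′ on the gene's strand. The rises are Zfp948 (plus strand, chr17:21566728-21567027), Zfp365 (minus strand, chr10:67912613-67912912), Zfp330 (minus strand, chr8:82774096-82774395), Zfp511 (plus strand, chr7:140036141-140036440) and Zfp692 (plus strand, chr11:58306819-58307118). ACGTG was found in 4 of these and not in Zfp692, and Zfp330 also holds CCGGAAG. The falls are Zfp106 (minus strand, chr2:120563810-120564109), Zfp770 (minus strand, chr2:114201383-114201682), Zfp827 (plus strand, chr8:79028187-79028486), Zfp606 (plus strand, chr7:12478055-12478354) and Zfp710 (plus strand, chr7:80024564-80024863). Among these ACGTG was found in Zfp770, CCGGAAG and ATGGCGG in Zfp606, and none of the 5 motifs in the other 3. GCGTG was not searched or marked, though it or its reverse complement stands in Zfp365, Zfp106 and Zfp827.
Zfp948: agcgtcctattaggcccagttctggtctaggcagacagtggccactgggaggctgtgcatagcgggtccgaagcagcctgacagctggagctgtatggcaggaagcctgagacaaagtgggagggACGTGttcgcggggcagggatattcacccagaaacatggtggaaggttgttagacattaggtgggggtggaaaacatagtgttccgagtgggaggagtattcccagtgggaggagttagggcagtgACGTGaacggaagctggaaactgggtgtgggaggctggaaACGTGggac
Zfp365: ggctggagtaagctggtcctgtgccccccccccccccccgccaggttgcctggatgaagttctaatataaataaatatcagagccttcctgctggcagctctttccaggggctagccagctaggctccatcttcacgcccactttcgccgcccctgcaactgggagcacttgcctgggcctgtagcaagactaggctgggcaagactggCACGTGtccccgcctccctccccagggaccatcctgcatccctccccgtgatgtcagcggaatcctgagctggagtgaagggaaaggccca
Zfp330: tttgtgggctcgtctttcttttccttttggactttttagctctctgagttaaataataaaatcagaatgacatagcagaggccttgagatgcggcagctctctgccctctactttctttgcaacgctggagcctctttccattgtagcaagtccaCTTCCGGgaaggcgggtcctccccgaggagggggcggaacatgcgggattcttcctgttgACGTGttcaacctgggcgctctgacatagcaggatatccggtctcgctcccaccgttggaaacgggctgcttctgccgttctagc
Zfp511: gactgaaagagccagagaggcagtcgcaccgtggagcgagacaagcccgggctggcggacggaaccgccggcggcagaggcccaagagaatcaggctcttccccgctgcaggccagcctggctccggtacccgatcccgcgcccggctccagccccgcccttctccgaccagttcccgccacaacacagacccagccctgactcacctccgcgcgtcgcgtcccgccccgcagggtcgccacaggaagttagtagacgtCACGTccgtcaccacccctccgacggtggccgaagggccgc
Zfp692: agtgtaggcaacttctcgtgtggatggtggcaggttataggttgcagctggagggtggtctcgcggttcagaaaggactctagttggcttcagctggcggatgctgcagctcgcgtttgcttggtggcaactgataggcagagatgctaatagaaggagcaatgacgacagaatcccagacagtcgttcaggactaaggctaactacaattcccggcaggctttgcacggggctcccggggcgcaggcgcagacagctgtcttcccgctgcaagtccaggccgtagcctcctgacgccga
Zfp106: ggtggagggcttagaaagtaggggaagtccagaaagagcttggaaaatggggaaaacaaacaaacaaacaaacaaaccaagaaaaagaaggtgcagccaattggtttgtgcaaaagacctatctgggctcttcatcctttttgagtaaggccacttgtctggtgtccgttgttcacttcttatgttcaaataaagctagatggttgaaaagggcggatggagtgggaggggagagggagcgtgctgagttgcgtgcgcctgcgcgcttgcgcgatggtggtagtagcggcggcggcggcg
Zfp770: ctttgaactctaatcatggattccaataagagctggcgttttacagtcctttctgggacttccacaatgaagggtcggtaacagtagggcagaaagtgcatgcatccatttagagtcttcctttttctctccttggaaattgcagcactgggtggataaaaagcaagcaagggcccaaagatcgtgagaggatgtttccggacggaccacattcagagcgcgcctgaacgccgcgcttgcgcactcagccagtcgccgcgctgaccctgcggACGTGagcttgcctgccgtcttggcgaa
Zfp827: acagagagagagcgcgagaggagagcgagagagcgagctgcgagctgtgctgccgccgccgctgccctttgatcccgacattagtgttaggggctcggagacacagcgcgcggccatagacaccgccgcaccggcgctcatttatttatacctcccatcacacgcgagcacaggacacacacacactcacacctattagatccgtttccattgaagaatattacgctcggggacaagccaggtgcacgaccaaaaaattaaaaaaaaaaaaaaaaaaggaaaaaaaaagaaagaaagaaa
Zfp606: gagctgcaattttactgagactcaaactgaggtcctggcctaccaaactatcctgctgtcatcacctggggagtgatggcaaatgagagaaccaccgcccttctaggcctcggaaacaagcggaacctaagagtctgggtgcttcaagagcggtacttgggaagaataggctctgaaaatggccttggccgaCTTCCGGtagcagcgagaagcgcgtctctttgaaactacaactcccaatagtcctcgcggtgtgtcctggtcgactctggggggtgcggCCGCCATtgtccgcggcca
Zfp710: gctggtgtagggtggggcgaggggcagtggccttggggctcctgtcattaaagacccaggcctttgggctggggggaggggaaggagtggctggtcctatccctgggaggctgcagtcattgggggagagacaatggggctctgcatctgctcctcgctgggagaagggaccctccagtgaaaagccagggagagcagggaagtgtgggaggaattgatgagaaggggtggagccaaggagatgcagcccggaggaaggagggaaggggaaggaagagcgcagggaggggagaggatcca

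The counts take no account of strand, so a gene that overlaps another cannot be counted cleanly. Of the members 49 share exon bases with another gene, with a median of 4.59% shared, and 5 share over 20%: Zfp414 (30.4%), Zfp532 (28.7%), Zfp865 (28.4%), Zfp335 (28.3%) and Zfp91 (25.8%). The values of Zfp532, Zfp414 and Zfp91 above carry that uncertainty, as does Zfp142 (18.5%, on the opposite strand to Plcd4). Among the 111 members that share none, 11 were called higher and 38 lower in Hypoxia against Control (9.91% and 34.2%, beside 26.4% and 25.1% of all genes tested), with a median of −0.31. Near-identical copies are uncertain in the same way.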

How the data were processed

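RNA-seq of polyadenylated RNA from 9 libraries was deposited as raw fragment counts per gene. The authors name HISAT2 and mm10, and the file header gives featureCounts 2.0.1 on paired exon fragments with GENCODE release M25 and no strand option. The members and lists were chosen with earlier results of these data known.

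Genes that passed filterByExpr were scaled by TMM and tested with the edgeR 4.0.16 quasi-likelihood test (R 4.3.3) over all 9 libraries, with a mean per group and Benjamini-Hochberg adjustment over all 16762 genes. CPM are scaled by TMM, and the SE is the log2 fold change divided by the root of F. The fit was tested on simulated data. P-values measure the spread between these samples, which may be technical.

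Named genes are the 8 members highest per kilobase, the 8 largest rises and falls without overlap in Hypoxia against Control, every member called in Hypoxia+rSRGN against Hypoxia, members on the list of known roles, and the 3 on each side of the count threshold. Other members named in the text lie outside that rule and were chosen after their values were seen. No protein table was at hand, so KRAB, SCAN and C2H2 patterns were searched in translated GENCODE M21 coding sequences, and the KRAB and SCAN patterns were loosened after seeing which symbols they matched. Promoters are from RefSeq. The corepressor counts leave out 1 gene of the list, which is not reported here.

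Alternatives were DESeq2 1.42.0, RLE scaling, library size alone, filters of at least 1 count in all or 10 in every library, unadjusted p, no fold limit, the compared groups alone, a replicate block, leaving out each library, and thresholds of 900 and 3600. Tables and plots used pandas 2.3.3 and matplotlib 3.10.9, and sequences Biopython 1.88.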

Additional observations from a re-analysis of the deposited data

How the results depend on the processing

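In Hypoxia against Control 69 members were called. Without a fold limit there were 116 (19.4% higher and 53.1% lower, beside 36.8% and 34.1% of all genes tested). Leaving out each library gave 63 to 73, and the other settings gave 59 (library size alone) to 75. The 63, without Hypoxia replicate 2, were 10.0% higher and 29.4% lower, beside 25.3% and 24.6% of all genes tested. The 75, with at least 1 count in all, were 8.125% higher and 38.75% lower, beside 14.86% and 14.75%. In Hypoxia+rSRGN against Hypoxia 2 were called. DESeq2, RLE scaling, at least 1 count in all, at least 10 counts in every library and only the groups compared gave 1 each. No fold limit gave 23. Leaving out each library gave 0 to 4, with 0 by edgeR without Hypoxia+rSRGN replicate 2 and 4 without Hypoxia+rSRGN replicate 3. The 4 were 0.625% higher and 1.875% lower, beside 2.61% and 0.737% of all genes tested. At an unadjusted p below 0.05 and any fold, 34 members were higher and 14 lower (21.2% and 8.75%, beside 15.9% and 13.5% of all genes tested). In Hypoxia+rSRGN against Control 120 were called without a fold limit (21.9% higher and 53.1% lower, beside 34.35% and 34.27% of all genes tested). With the limit 65 were called, and 62 to 70 leaving out each library. The 70, without Control replicate 2, were 8.125% higher and 35.6% lower, beside 22.8% and 23.7% of all genes tested. The cause of these differences was not tested beyond what each setting changes by construction. A replicate block gave 69, 2 and 65. Deviations of libraries with the same number correlated between −0.073 and 0.0727 across genes. Libraries with different numbers were not compared, so these values cannot tell whether the replicate numbers pair.

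At thresholds of 900 and 3600 counts, 41.9% and 44.4% of members were called in Hypoxia against Control, in place of 43.1%. In Hypoxia+rSRGN against Hypoxia it was 2.03% and 1.01%, in place of 1.25%. Of all genes tested 51.6% and 3.13% were called in these comparisons. At 900 counts 18 members were called higher and 85 lower in Hypoxia, and 1 higher and 4 lower with serglycin. At 3600 counts 11 were called higher and 33 lower, and with serglycin 1 and 0. For the 51 members that the naming rule gives, no called change turned its direction in any comparison under the settings tried. Scaling by library size alone kept 57 of the 69 calls in Hypoxia against Control. The lowest count of a member in a library was 80, and replicate pairs varied by 3.74 to 14.2 times counting error (chi-square per degree of freedom over all genes). The 3 libraries per group, of unknown origin within the group, limit the spread that could be measured, and calls near the fold limit depend on single libraries.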

Other observations

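The family left out by name binds AU-rich messenger RNA and speeds its decay. Zfp36 averaged 26.2 CPM in Control, 54.1 in Hypoxia and 58.7 in Hypoxia+rSRGN, and rose by 1.05 on the log2 scale in Hypoxia against Control (edgeR quasi-likelihood test, adjusted p = 2.20e-07). Zfp36l1 averaged 120, 198 and 203 CPM and rose by 0.73. Zfp36l2 averaged 61.6, 83.5 and 115 CPM, and neither its difference of 0.44 in Hypoxia nor that of 0.46 in Hypoxia+rSRGN against Hypoxia reached the fold limit, while in Hypoxia+rSRGN against Control it was called higher (0.90, edgeR adjusted p = 4.09e-10), a comparison that shares libraries with both others. Zfp36l3 had 8 counts in all.

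Of the Zfp genes with a known role that lay below the count threshold, Zfp385b had 826 counts and averaged 9.47 CPM in Control, 1.62 in Hypoxia and 2.19 in Hypoxia+rSRGN. Its groups did not overlap between Control and Hypoxia, and it fell by 2.55 on the log2 scale. Zfp503, a repressor in the developing brain and limb, had 1319 counts and rose by 1.01 in Hypoxia. Zfp423, a regulator of fat cell commitment, had 913 counts and rose by 0.66, but lost its call without Control replicate 3 (0.49) and without Hypoxia replicate 1 (0.47). Zfp667 had 632 counts and fell by 1.12 in Hypoxia against Control (edgeR quasi-likelihood test, adjusted p = 0.000768). Zfp418 had 195 counts and fell by 1.20 (edgeR adjusted p = 0.0116), but lost its call without Control replicate 3 (−0.93). Zfp932 had 1322 counts and stood at −0.52, not called, and passed the limit without Control replicate 2 (−0.61) or Hypoxia replicate 1 (−0.62). Zfp804a with 29 counts and Zfp819 with 20 were not tested.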
